A study of Mus musculus with 11 samples.

Results

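The comparison described here set the oviducts of 4 mice given a low dose of lipopolysaccharide (LPS, an outer membrane component of Gram-negative bacteria) against those of 3 control mice. All were female CD1 mice, an outbred strain, 6 to 8 weeks old. They were injected intraperitoneally on the day of estrus and killed 24 h later. Low dose mice received 2 µg of LPS, purified from Escherichia coli of serotype 055:B5 and carried in PBS, and control mice received 0 µg. The design planned 4 mice per treatment, and 1 control mouse of that plan was not analysed here. The 4 mice of the 10 µg dose entered the model to share the estimate of the spread between mice. They also entered the scaling of counts, which was computed over all 11 mice. Total RNA of the whole oviduct of each mouse was counted on an nCounter mouse miRNA array, which ligates a tag to each miRNA and counts fluorescent barcodes without amplification. A miRNA was included when its count passed a bound in at least 3 of the 7 lanes, where the bound was the mean of the negative control probes in that lane plus 2 of their SDs. This rule kept 199 of the 566 mouse miRNA probes, and all 199 are described as one comparison.

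MicroRNAs are short RNAs that guide Argonaute proteins to messenger RNAs, mostly by pairing through a seed near their 5′ end. miRNAs with the same seed form a family and can share targets, and miRNAs whose hairpins lie close together are often cut from a single primary transcript. LPS is sensed by Toll-like receptor 4, and in macrophages its signal raises transcription of several miRNAs, some of which act back on the pathway. The oviduct wall holds ciliated and secretory epithelium, stroma, smooth muscle, vessels and resident leukocytes, and each contributes to a count from whole tissue.

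The mature sequences of the miRNAs that passed the test are shown with those of relatives that are compared with them, because the results below compare members of a seed family or gene cluster with each other. Sequences are from RefSeq (GRCm38.p6), written 5′ to 3′, and capitals mark the seed, bases 2 to 8. Of 36 names looked up, 31 had a sequence.
miR-203: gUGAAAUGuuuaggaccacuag
miR-222: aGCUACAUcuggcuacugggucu
miR-221: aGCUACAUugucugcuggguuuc
miR-101a: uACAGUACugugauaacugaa
miR-21: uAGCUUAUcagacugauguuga
miR-1902: aGAGGUGCaguaggcaugacuu
miR-196b: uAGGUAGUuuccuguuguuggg
miR-196a: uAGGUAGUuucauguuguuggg
miR-26a: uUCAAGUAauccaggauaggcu
miR-26b: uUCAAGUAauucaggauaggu
miR-23a: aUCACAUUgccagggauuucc
miR-27a: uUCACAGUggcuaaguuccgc
miR-27b: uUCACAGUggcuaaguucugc
miR-24: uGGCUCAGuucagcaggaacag
miR-30c: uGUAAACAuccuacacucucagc
miR-30e: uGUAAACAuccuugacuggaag
miR-30a: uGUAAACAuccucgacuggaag
miR-322: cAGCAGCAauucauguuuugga
miR-16: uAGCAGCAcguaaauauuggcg
miR-497: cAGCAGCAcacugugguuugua
miR-301a: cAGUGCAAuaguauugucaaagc
miR-130a: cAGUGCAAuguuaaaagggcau
miR-146a: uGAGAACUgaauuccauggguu
miR-155: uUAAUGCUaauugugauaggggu
miR-27a and miR-27b differed at 1 of 21 compared bases, and miR-196a and miR-196b at 1 of 22. miR-26a and miR-26b differed at 2 of 21, and miR-146a and miR-146b at 2 of 22. The sequences of miR-30a and miR-30e are also nearly the same. So are those of miR-101a and miR-101b, once the extra first base of miR-101b is set aside. Counts within each of these pairs may not be fully separate. No sequence was found for miR-23b, miR-30b, miR-30d and miR-301b, so their likeness to miR-23a, miR-30c and miR-301a was not compared. Their counts may likewise not be fully separate from those of these relatives. miR-222 and miR-221 shared a seed and differed at 12 of 23 bases. miR-30c and miR-30e differed at 5 of 22. miR-322 differed from miR-16 at 10 of 22 bases and from miR-497 at 7.

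Total miRNA counts were between 500224 and 684771 in the 7 lanes, and the 199 miRNAs held 97.9% to 98.5% of them. The detection bound lay between 57.1 and 95.03 counts in 6 lanes and at 143 in low dose mouse 4, whose negative control NEG_C counted 162 against 41 to 84 elsewhere. That lane had 146 of the 199 miRNAs above its bound, and the others 176 to 197. Of the 199, 145 exceeded the bound in all 7 lanes. None was below the bound in every control lane, while miR-151-3p and miR-300 were above it in the 3 controls and in no low dose lane. miR-151-3p is named for this after its values were seen (92.2 and 70.5 normalized counts, edgeR adjusted p = 0.1002). Lane bounds were 57.1, 67.94 and 74.54 in control mice 1 to 3. They were 76.05, 68.57, 95.03 and 143 in low dose mice 1 to 4. Raw counts of miR-151-3p were 106, 74 and 89 in the controls and 69, 61, 90 and 85 at the low dose. The detection contrast of both miRNAs therefore depended in part on the lane bounds. Both were kept by the filter only through their control lanes. Sample numbers ran in group order, with controls 1, 2 and 4 before low dose mice 5 to 8, so this order and the dose cannot be told apart. Some markers listed for cell types of the labelled tissue were abundant. The epithelial miR-200c, the ciliated cell miRNA miR-34c and the smooth muscle miRNA miR-143 had control means of 10575, 21293 and 16377 normalized counts. Other members of the same lists were below the bound in all 7 lanes, namely miR-182, miR-449b, miR-449c, miR-133b and miR-206. No other tissue was compared, so these counts do not test the label.

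At the low dose, 13 of 199 miRNAs (6.53%) differed from control by edgeR's quasi-likelihood test with Benjamini-Hochberg adjustment at 0.05. In whole tissue, fewer cells of a type and less miRNA per cell cannot be told apart. The 8 that rose (4.02% of those tested) were miR-203, miR-222, miR-101a, miR-21, miR-1902, miR-196b, miR-30d and miR-26a. The 5 that fell (2.51%) were miR-23a, miR-27a, miR-30c, miR-322 and miR-301a. Changes of called miRNAs were small to moderate, from 0.32 to 0.90 in size on the log2 scale. All 13 were above the bound in all 7 lanes, and for each of the 13 no low dose mouse fell within the control range, which held for 48 of the 199 miRNAs (24.1%). Without the adjustment, 56 miRNAs had p under 0.05, 29 of them higher and 27 lower.

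**Figure D1:**
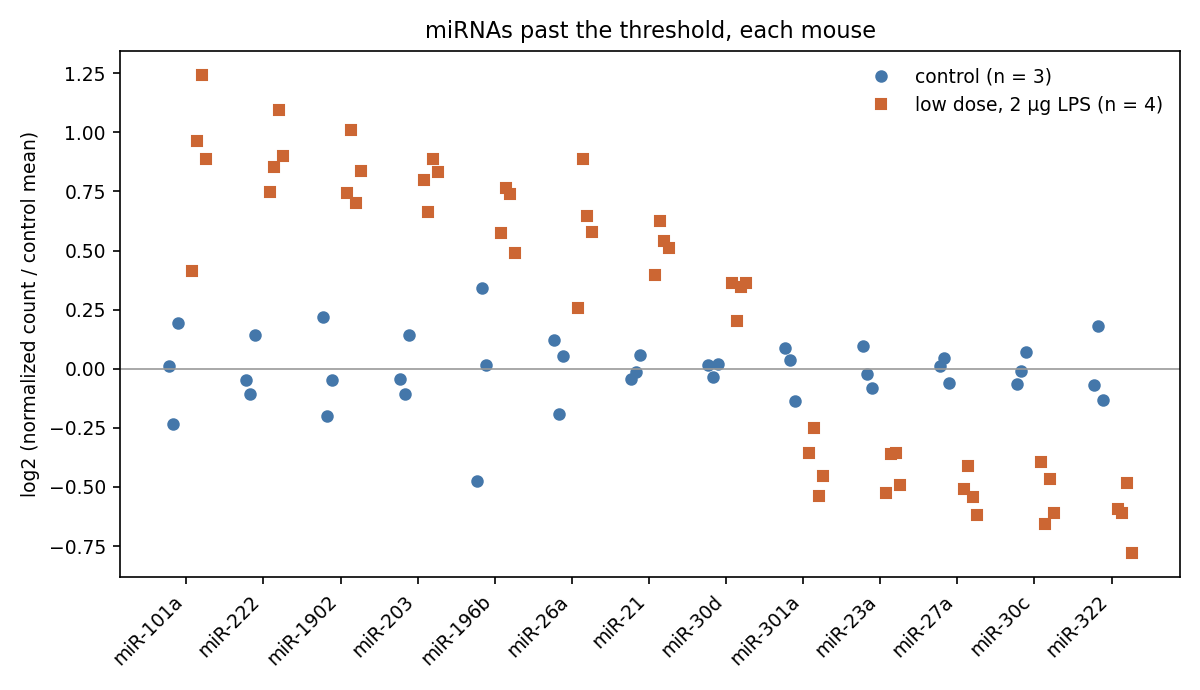
Normalized count of each mouse over the control mean, on a log2 scale, for the 13 miRNAs past the threshold; circles are the 3 control mice and squares the 4 low dose mice. The groups do not overlap for any of the 13, and control mouse 1 was the lowest control for miR-196b.

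Most miRNAs moved little. Over the 199, the median log2 change was -0.01, the quartiles were -0.17 and 0.21, and 95 changes were positive and 104 negative. In 109 of the 199 the change was under 0.2 in size, and only miR-196a exceeded 1. The 95% interval of a change had a median reach of 0.27 to either side for the 99 miRNAs with the highest counts and 0.32 for the other 100. These intervals are not adjusted for the number of miRNAs tested. The smallest change that passed was 0.32 in size, and larger ones did not all pass, up to 1.04 for miR-196a (edgeR adjusted p = 0.0821). The highest counts were miR-125b-5p, with 55926 ± 5017 normalized counts in controls and 51188 ± 4943 at the low dose (SD, n = 3 and 4), miR-145, with 31406 ± 3185 and 33542 ± 5868, and miR-29a, with 27408 ± 2234 and 30124 ± 1610.3. None of the 10 most abundant passed the test, beside 6.53% called over all 199. Their log2 changes ran from -0.24 for miR-34c to 0.29 for let-7c (edgeR adjusted p = 0.234 and 0.205).

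**Figure D2:**
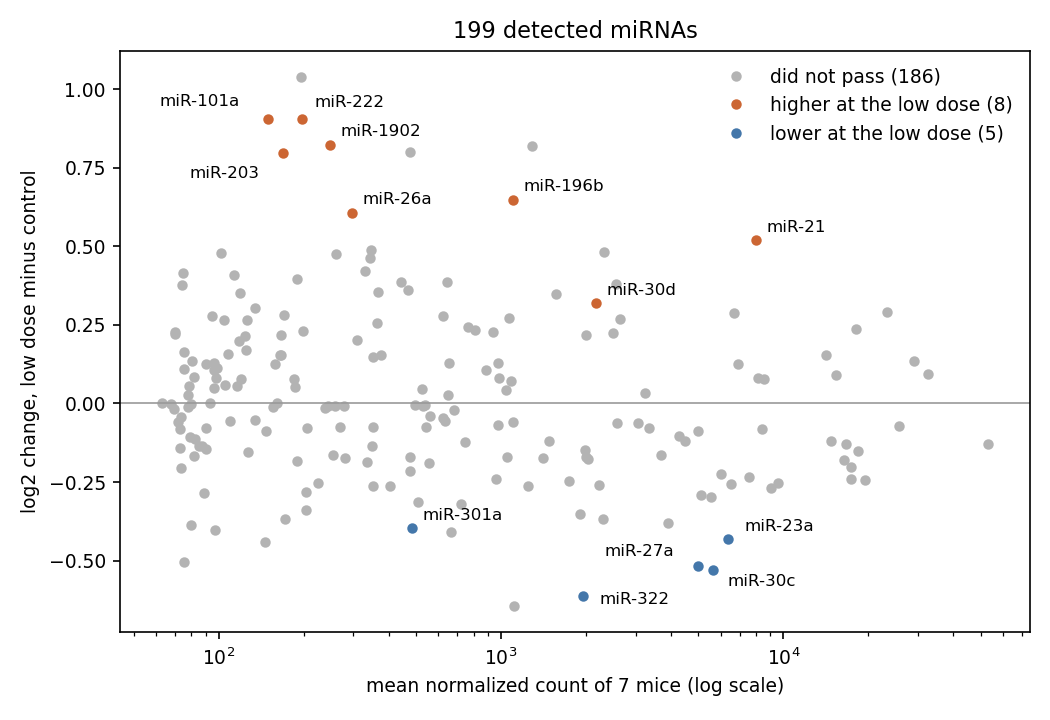
Log2 change at the low dose against the mean normalized count of the 7 mice (log scale) for the 199 miRNAs; the 8 that rose and the 5 that fell are named. Calls lie across the abundance range, with 8 among the 99 highest counts and 5 among the other 100.

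The levels are relative to the other miRNAs of the lane, and absolute direction depended on the scaling. With positive control probes in place of miRNAs as the reference, the median of all 199 stood at 0.18 and 158 changes were positive. With the 4 mRNA probes as the reference it stood at -0.21 and 51 were positive. That reference holds B2m, whose own count differed between the groups (log2 difference 1.92, described below). Without B2m, an alternative chosen after seeing the data, the median stood at 0.29 and 180 changes were positive. All 13 called miRNAs kept their sign under the 3 references. Relative to the median, their changes moved by at most 0.05 and 0.06 on the log2 scale with the positive controls and the 4 mRNA probes. A reference shifts all miRNAs of a lane together, so this follows from the scaling and is no test of the calls. Calls did change. The positive controls gave 6 calls, all higher, and the 5 lower miRNAs no longer passed: miR-23a went from -0.43 to -0.25 (edgeR adjusted p = 0.590), and the others had edgeR adjusted p of 0.408 to 0.627. miR-21, miR-26a and miR-30d did not pass there either. The 4 mRNA probes gave 0 calls by edgeR, with 7 miRNAs at an unadjusted p under 0.05 and a median SE of the 13 changes of 0.36 against 0.12. Without B2m the mRNA reference gave 9 calls, all higher, among them 6 of the 8 reported as higher and none of the 5 reported as lower, with a median SE of 0.25.

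miRNAs listed for responses to LPS and Toll-like receptors come next. Of 16 on the list, 12 were detected, and 3 of those are among the miRNAs that rose (miR-21, miR-203 and miR-222). No member fell, and 9 stayed short of the threshold, beside 4.02% higher and 2.51% lower over all 199. Their median log2 change was 0.25, beside -0.01 over all 199, with 8 of the 12 positive. In 7 of the 12 the groups did not overlap, beside 24.1% of all miRNAs. The list was drawn up with earlier results of these data known, so its counts describe its members and no more.

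miR-203, which is enriched in epithelia and restrains p63 in skin, had 116, 110.5 and 131 normalized counts in the controls and 207, 189, 220.4 and 212 in the low dose mice. All 4 low dose mice lay above the highest control, and the spread within each group was narrow. The log2 change was 0.80 ± 0.12 (SE), or 1.74-fold (edgeR adjusted p = 0.00417). miR-222, which targets the cell cycle inhibitor Cdkn1b and the receptor Kit, had 127.9, 122.9 and 145.8 normalized counts in the controls and 221.9, 238.6, 282.3 and 246.6 at the low dose. The groups were again fully apart. It rose 1.87-fold, by 0.90 ± 0.15 on the log2 scale (edgeR adjusted p = 0.00439). Control counts of both were low beside detection bounds of 57.1 to 74.54 in the control lanes. Background was not subtracted, and negative control means were 24.9 to 32.6 in control lanes and 32 to 44.25 in low dose lanes. With that mean subtracted, 16 miRNAs passed, among them all 13 called here.

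miR-21, which is induced in many inflamed tissues and represses Pdcd4, had 6229.9, 6350.1 and 6677 normalized counts in controls and 8453, 9887, 9322 and 9139 at the low dose. The lowest low dose mouse stood above every control. The log2 change was 0.52 ± 0.12, or 1.43-fold (edgeR adjusted p = 0.0209). Scaled to the positive controls it did not pass, with the same sign.

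miR-146a, which lowers Toll-like receptor signalling through Traf6 and Irak1, did not pass. It had 828, 894 and 979 normalized counts in controls and 1567, 1839, 1301 and 1643 at the low dose. No low dose mouse overlapped the controls, and low dose mouse 3 was the lowest of its group. The difference was 0.82 ± 0.24 on the log2 scale (edgeR adjusted p = 0.0589). Without low dose mouse 3 it became 0.93 (edgeR adjusted p = 0.0496). Over 20 alternative settings it passed in 11, counting the threshold of 0.1 and the unadjusted LSD test, and not in 9. It passed with DESeq2 (DESeq2 adjusted p = 0.00555), in a fit of these 7 mice alone (edgeR adjusted p = 0.00393) and with the positive controls (edgeR adjusted p = 0.0365), and the highest value was 0.898 with the 4 mRNA probes. miR-146b, with the same seed and 2 of 22 bases different, stood 0.26 ± 0.12 above control (edgeR adjusted p = 0.166), with overlapping groups.

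miR-155, a miRNA that LPS induces in macrophages, had 357, 399 and 372 normalized counts in controls and 437, 539.8, 489 and 499.7 at the low dose. The groups did not overlap, and the difference was 0.39 ± 0.13 (edgeR adjusted p = 0.0912). The name of this probe carries a factor of 0.022, one of 4 such factors among the 199 miRNAs. That factor times the lane's POS_A control came to 499, 528 and 535 counts in controls, above their raw counts of 374, 354 and 360. At the low dose the product came to 518, 481, 463 and 446, beside raw counts of 469, 518, 577 and 545. The level of miR-155 over background is therefore uncertain, above all in the controls. The other LPS list members did not pass: miR-221, miR-125a-5p, miR-125b-5p and let-7e had negative log2 changes, down to -0.37, and miR-132 and miR-99b positive ones of 0.16 and 0.24. miR-125b-5p and let-7e turned positive with the positive control reference, and miR-132 negative with the 4 mRNA probes. miR-9, miR-147, miR-187 and miR-212 were listed and below the bound in all 7 lanes, with at most 72 raw counts.

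miR-23a, miR-27a and miR-24-2 lie on mouse chromosome 8, at chr8:84208563-84208583, chr8:84208727-84208747 and chr8:84208875-84208896 on the plus strand of GRCm38.p6. Their hairpins are 80 and 57 bases apart. miR-23a fell from 7954, 7331 and 7033 normalized counts to 5169, 5795, 5817 and 5291 (log2 change -0.43 ± 0.09, edgeR adjusted p = 0.0151). miR-27a, which represses Pparg, fell from 6099, 6246 and 5798 to 4253, 4551, 4147 and 3942 (-0.52 ± 0.11, edgeR adjusted p = 0.0205). For both, the highest low dose mouse was below the lowest control.

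miR-24, whose mature sequence is made from chromosome 8 and from chromosome 13, did not share that fall. It had 635, 479 and 532 normalized counts in controls and 577, 724, 845 and 727 at the low dose. These ranges overlapped, and the difference was 0.39 ± 0.15 (edgeR adjusted p = 0.124). From the related cluster that holds the b forms, miR-23b stood at 3191 ± 254 and 3264 ± 365 normalized counts (log2 difference 0.03 ± 0.14). miR-27b stood at 248 ± 34.7 and 208 ± 17.8 (-0.25 ± 0.13, edgeR adjusted p = 0.212). Of the 5 miRNAs of these clusters 2 fell and 3 did not pass, beside 2.51% lower over all 199. The list median was -0.25.

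Ratios within a lane do not depend on the scaling. They are given as descriptions without a test, since a member of each pair was chosen for its change. The log2 ratio of miR-23a over miR-23b was 1.19, 1.28 and 1.20 in controls and 0.88, 0.86, 0.65 and 0.66 at the low dose. Against miR-24, miR-23a went from a mean of 3.77 ± 0.15 to 2.95 ± 0.17 and miR-27a from 3.47 ± 0.22 to 2.57 ± 0.26. In these 3 ratios no low dose mouse reached the controls. For miR-27a over miR-27b the values overlapped, with means of 4.62 ± 0.17 and 4.35 ± 0.17.

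The miR-30 family, whose members share the seed GUAAACA in the sequences shown above, split between directions. miR-30c had 6521, 6778 and 7159 normalized counts in controls and 5186, 4322, 4931 and 4468 at the low dose. It fell by 0.53 on the log2 scale, with an SE of 0.11 (edgeR adjusted p = 0.0151). miR-30d rose from 1918, 1853 and 1926 to 2441, 2183, 2415 and 2439 (0.32 ± 0.09, edgeR adjusted p = 0.0476). Low dose mouse 2 stood below the other low dose mice for miR-30d and still above every control.

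The other 3 family members had positive differences and did not pass. miR-30b stood at 2180.3 ± 289 normalized counts in controls and 2836 ± 243 at the low dose (0.38 ± 0.12, edgeR adjusted p = 0.0820). miR-30e stood at 405 ± 32.5 and 519.5 ± 52.2 (0.36 ± 0.11, edgeR adjusted p = 0.0669), and miR-30a at 2366 ± 142 and 2851 ± 284 (0.27 ± 0.11, edgeR adjusted p = 0.133). The groups were apart for miR-30b and miR-30e and overlapped for miR-30a. Of the miR-30c genes, Mir30c-1 lies 2984 bases from Mir30e on mouse chromosome 4.

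The ratios, again a description without a test, restate these counts free of scaling. miR-30c over miR-30d was 1.77, 1.87 and 1.89 (log2) in controls and 1.09, 0.99, 1.03 and 0.87 at the low dose. miR-30c over miR-30e fell from a mean of 4.08 ± 0.14 to 3.19 ± 0.19, and over miR-30b from 1.65 ± 0.20 to 0.74 ± 0.19. None of the 3 ratios overlapped between groups.

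**Figure D3:**
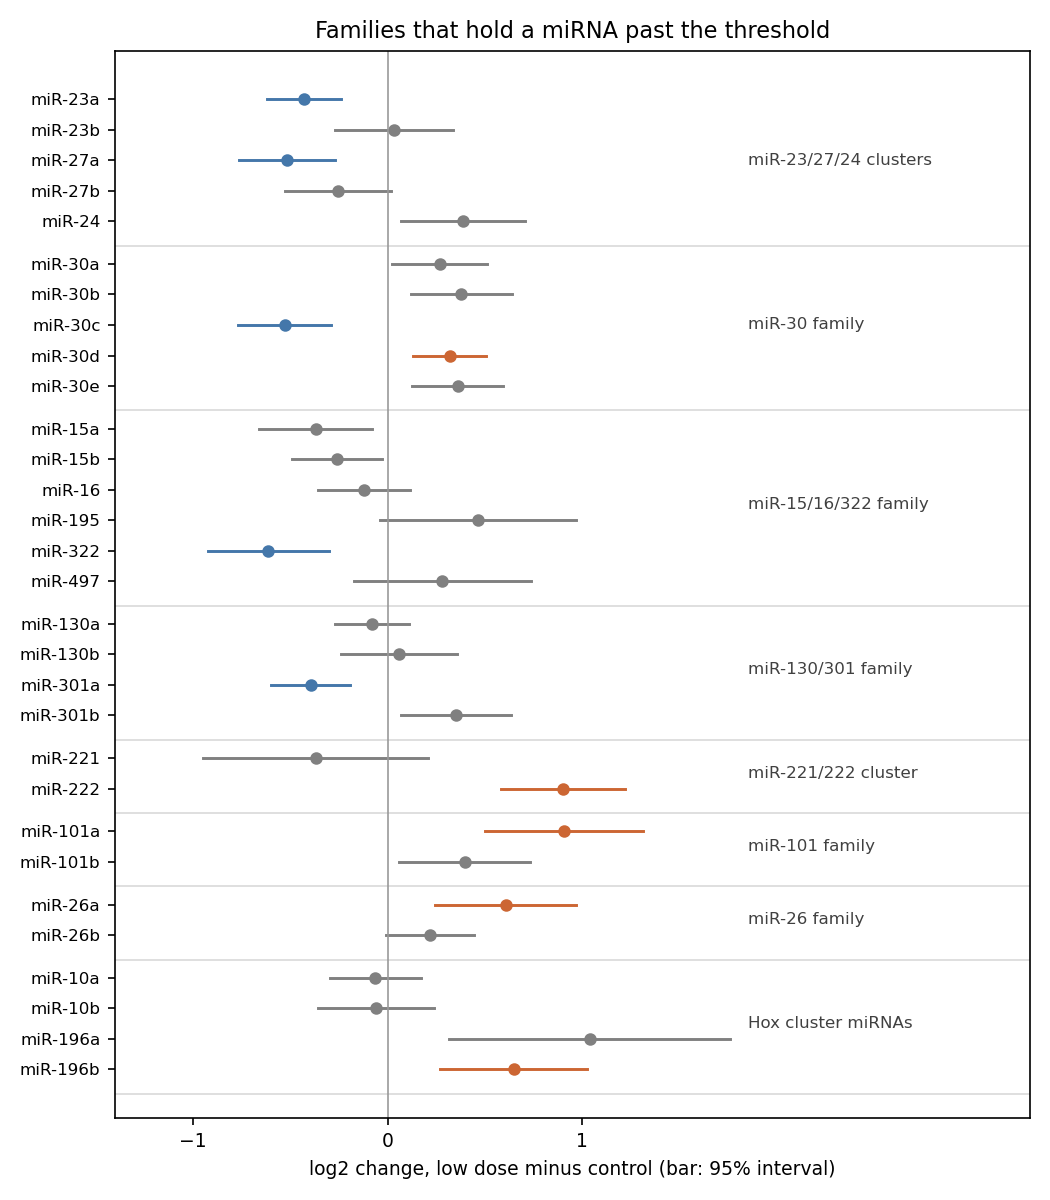
Log2 change at the low dose with its 95% interval for the detected members of 8 families or clusters that hold a called miRNA; orange marks miRNAs that rose, blue those that fell, grey those that did not pass. miR-30c at -0.53 lies opposite the 4 other miR-30 members, and miR-222 at 0.90 opposite miR-221 at -0.37.

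miR-222 and miR-221 lie 505 bases apart on the X chromosome and share their seed. miR-222 is at chrX:19146901-19146923 and miR-221 at chrX:19146307-19146329, on the minus strand. miR-221 had 219, 184 and 189 normalized counts in controls and 105, 157, 181 and 167 at the low dose. All 4 low dose mice lay below the controls, while miR-222 in the same lanes lay above them. The difference of miR-221 did not pass (-0.37 ± 0.27, edgeR adjusted p = 0.423). The log2 ratio of miR-222 over miR-221 was -0.77, -0.58 and -0.38 in controls and 1.07, 0.60, 0.64 and 0.56 at the low dose. No low dose mouse overlapped the controls. With the mean of the negative controls subtracted, the difference of this ratio was 1.61 in place of 1.30.

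miR-322, a relative of miR-16 and miR-497 made from a cluster on the X chromosome, fell. It had 2318, 2754 and 2217 normalized counts in controls and 1610.0, 1591, 1739 and 1414 at the low dose. The log2 change was -0.61 ± 0.14 (edgeR adjusted p = 0.0209), and the groups were apart. The neighbouring miR-542-5p, 4768 bases away, stood at 113 ± 21.5 and 84.96 ± 7.78 normalized counts (-0.40 ± 0.13, edgeR adjusted p = 0.0912). miR-450a-5p, named as a neighbour as well, differed by -0.17 ± 0.18. miR-503 was listed and below the bound in all 7 lanes.

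Of the 6 detected miRNAs with the seed AGCAGCA, miR-322 alone passed, beside 6.53% called over all 199. miR-15a and miR-15b lay below control in every low dose mouse without passing (-0.37 ± 0.13 and -0.26 ± 0.11, edgeR adjusted p = 0.121 and 0.133). miR-16 differed by -0.12 ± 0.11 and turned positive with the positive control reference. miR-195 and miR-497, which share a cluster on chromosome 11, differed by 0.46 ± 0.23 and 0.28 ± 0.21 and overlapped. The log2 ratio of miR-322 over miR-497 was 3.78, 4.15 and 4.09 in controls and 3.61, 2.86, 3.03 and 3.02 at the low dose. Low dose mouse 1 lay nearest the controls without reaching them.

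miR-301a, a relative of miR-130a, fell from 595, 575 and 509.7 normalized counts to 437, 471, 386 and 409. The log2 change was -0.40 ± 0.09 (edgeR adjusted p = 0.0209). Its relative miR-301b lay above control in every low dose mouse, at 103 ± 13.1 and 132 ± 3.48 normalized counts, without passing (0.35 ± 0.13, edgeR adjusted p = 0.121). miR-130a and miR-130b differed by -0.08 ± 0.09 and 0.06 ± 0.14. Counts of miR-301b and miR-130b were close to the detection bound.

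miR-101a and miR-26a, both known to repress the histone methyltransferase Ezh2, rose. miR-101a had 100.3, 84.5 and 114 normalized counts in controls and 132, 194, 236 and 184 at the low dose, with low dose mouse 1 nearest the controls. The log2 change was 0.90 ± 0.19 (edgeR adjusted p = 0.0151). Control counts of miR-101a were low, as for miR-301b and miR-130b, beside lane bounds of 57.1, 67.94 and 74.54 in control mice 1 to 3. miR-26a went from 249, 201 and 238 to 274, 424, 359 and 342 (0.61 ± 0.17, edgeR adjusted p = 0.0499), again with low dose mouse 1 the lowest of its group. The log2 differences of miR-101b and miR-26b were 0.40 ± 0.15 and 0.22 ± 0.10 (edgeR adjusted p = 0.124 and 0.194), also above control, and neither passed.

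miR-196b, which lies in the Hoxa cluster and represses Hox mRNAs, had 601, 1057 and 844 normalized counts in controls and 1239.9, 1418, 1394 and 1172 at the low dose. The controls spread more than the low dose mice, and the groups did not overlap. The log2 change was 0.65 ± 0.17 (edgeR adjusted p = 0.0476), and without control mouse 1 it was 0.46 (edgeR adjusted p = 0.0915). miR-196a, at Hoxb and Hoxc, had 101.2, 164.6 and 102.4 in controls and 168, 355, 319.6 and 162 at the low dose. Low dose mouse 4 fell within the control range, and the difference did not pass (1.04 ± 0.33, edgeR adjusted p = 0.0821). miR-10a and miR-10b, also Hox cluster miRNAs, differed by -0.06 each.

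miR-1902 rose from 201, 149.9 and 166 normalized counts to 288, 347, 279.7 and 308 (0.82 ± 0.19, edgeR adjusted p = 0.0209). Its groups were apart.

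**Figure D4:**
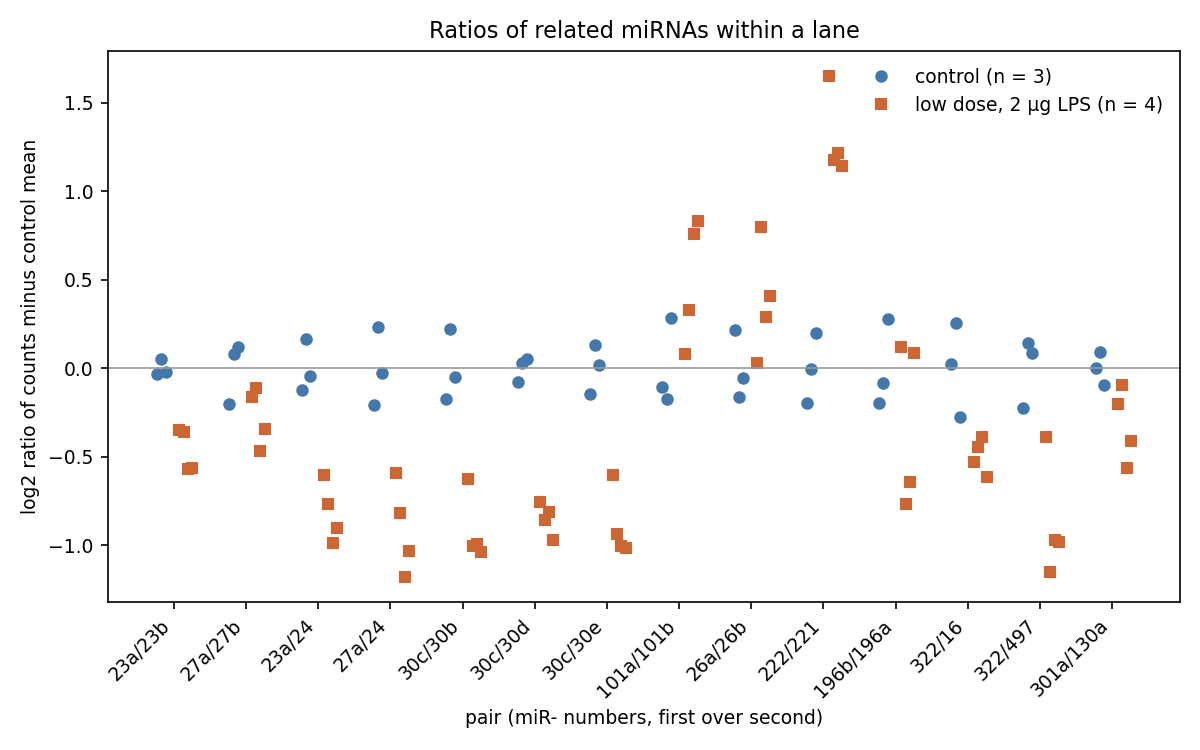
Log2 ratio of 2 related miRNAs within a lane, minus the control mean of that ratio, for 14 pairs; circles are the 3 controls and squares the 4 low dose mice. In 9 pairs the groups do not overlap, and in 5 they do (miR-27a with miR-27b, miR-101a with miR-101b, miR-26a with miR-26b, miR-196b with miR-196a and miR-301a with miR-130a). Each pair holds a called miRNA whose own groups were already apart, so these numbers of pairs describe the selection and no more.

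The calls depended on single mice to different degrees. The count of 13 became 6 without control mouse 1, 3 without control mouse 2, 9 without control mouse 3, and 13, 7, 10 and 2 without low dose mice 1 to 4. miR-203 and miR-222 passed without any of the 7 mice in turn, with edgeR adjusted p of at most 0.0286 for each. miR-101a, miR-23a and miR-27a each lost their call when control mice 1 or 2 or low dose mouse 4 were left out, where the highest edgeR adjusted p was 0.0690, 0.0641 and 0.0690. miR-30c lost its call without control mice 2 or 3 or low dose mouse 4 (up to edgeR adjusted p = 0.0650). miR-21 and miR-322 were lost without control mice 1 or 2 or low dose mice 2 or 4 (up to edgeR adjusted p = 0.0800 and 0.106). miR-301a was lost without those controls and low dose mice 3 or 4 (up to edgeR adjusted p = 0.116), and miR-1902 without control mice 2 or 3 or low dose mice 2 or 4 (up to edgeR adjusted p = 0.0949). miR-196b passed only without control mouse 2 and miR-26a only without low dose mouse 1, with edgeR adjusted p up to 0.102 and 0.169 otherwise. miR-30d passed in none of these 7 fits (edgeR adjusted p from 0.0566 to 0.140). No called miRNA changed sign in any of them.

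**Figure D5:**
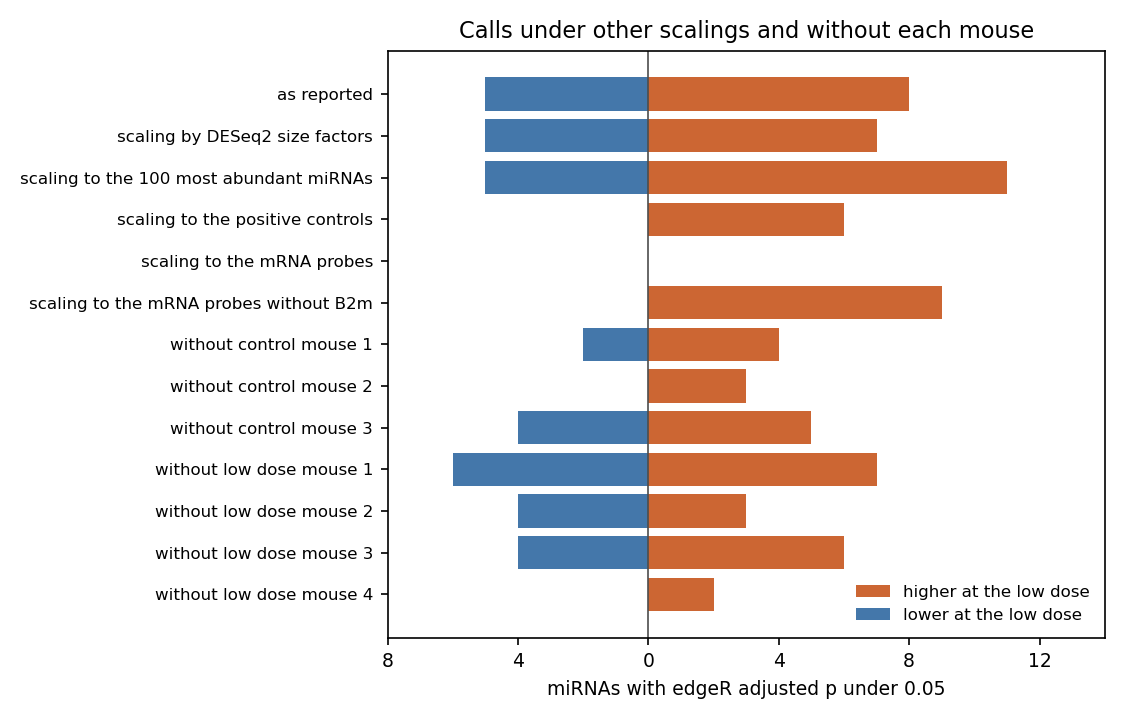
Number of miRNAs with edgeR adjusted p under 0.05, higher (orange, to the right) or lower (blue, to the left) at the low dose, as reported, under 5 other scalings and without each mouse. Counts range from 0 with the 4 mRNA probes as reference to 16 with the 100 most abundant miRNAs as reference, against 13 as reported.

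Of the 10 miRNAs next in order of p, miR-300, miR-350, miR-429 and miR-542-5p stood below control in every low dose mouse. miR-300 was near the bound, at 91.02 ± 16.02 and 64.0 ± 2.63 normalized counts, and was kept by the filter only through its control lanes (-0.50 ± 0.14, edgeR adjusted p = 0.0534). miR-350 stood at 389 ± 10.3 and 324 ± 6.61 normalized counts (-0.26 ± 0.08, edgeR adjusted p = 0.0669). miR-429, a member of the miR-200 family that represses Zeb1 and Zeb2, stood at 4485 ± 549.9 and 3442 ± 394 (-0.38 ± 0.12, edgeR adjusted p = 0.0807). miR-129-3p and miR-374 had positive differences of 0.49 ± 0.16 and 0.42 ± 0.14 (edgeR adjusted p = 0.0821 each), with overlapping groups. The rest of the 10 are described above with their families.

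Among epithelial miRNAs, 13 of 15 listed were detected, miR-203 rose and 12 did not pass, near the 6.53% called over all 199. The list median was -0.08, and 0.10 with the positive control reference. The summed normalized counts of the list were 37075 to 39465 in controls and 31108 to 39354 at the low dose. miR-375, a miRNA of secretory cells, had 1444, 1365 and 1406 normalized counts in controls and 1258, 899, 663 and 777 at the low dose. Every low dose mouse was below the controls, and the spread within the low dose group was wide (-0.64 ± 0.26, edgeR adjusted p = 0.133). miR-200c differed by -0.25 ± 0.12 (edgeR adjusted p = 0.192).

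The miR-34 and miR-449 families act in the formation of motile cilia. None of the 5 detected ciliated cell miRNAs passed, beside 6.53% called over all 199, and their median was -0.17. miR-449a had 2244, 2119 and 2147 normalized counts in controls and 2735, 2478, 1042 and 1425 at the low dose. Low dose mice 1 and 2 lay above the controls and mice 3 and 4 below them. The summed list was 23439 to 34103 in controls and 22327 to 27920.5 at the low dose. The factor in the miR-34c probe name, times POS_A, came to 2513.5 to 3015.3 counts against raw counts of 15657 to 27365.

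The 4 detected muscle miRNAs (miR-143, miR-145, miR-1 and miR-133a) did not pass, with sums of 43132 to 55320 in controls and 40502 to 60579 at the low dose. The 4 stromal miRNAs did not pass either, while 6.53% of all 199 were called. The lowest of them was miR-199a-3p (-0.30 ± 0.12, edgeR adjusted p = 0.133), and the sums were 9976 to 11643 and 7908 to 10176. Of 2 endothelial miRNAs, miR-126-5p stood above control in every low dose mouse (0.27 ± 0.13, edgeR adjusted p = 0.202) and its other arm, miR-126-3p, overlapped (-0.10 ± 0.12).

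None of the 5 detected leukocyte miRNAs passed, beside 6.53% called over all 199. Their sums overlapped, at 3900.3 to 5320.0 in controls and 4769 to 5612 at the low dose. miR-223, a miRNA of myeloid cells and neutrophils, stood at 574 ± 88.9 normalized counts in controls and 462 ± 43.1 at the low dose (-0.31 ± 0.12, edgeR adjusted p = 0.124). miR-142-3p, found across blood cells, stood at 1354 ± 259 and 1722 ± 188 (0.35 ± 0.17, edgeR adjusted p = 0.202). miR-342-3p was 323 in control mouse 1 and 970.4 and 913 in the other controls, within which range all low dose mice fell. Erythroid miR-451 ranged from 1127 to 3611 in controls and from 1511 to 4258 at the low dose, and miR-144, from the same cluster, differed by 0.80 ± 0.32 (edgeR adjusted p = 0.124). The part of cell composition in the 13 changes was not tested.

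The 9 detected let-7 family members did not pass (median 0.03), although let-7g and let-7d lay below control in every low dose mouse. Their differences were -0.15 ± 0.08 and -0.18 ± 0.09 (edgeR adjusted p = 0.247 and 0.225), and let-7g turned positive with the positive control reference. In the miR-17 family clusters, 0 of 7 passed, with miR-19a above control and a probe shared by miR-17 and miR-106a below it in every low dose mouse (0.28 ± 0.10 and -0.17 ± 0.10, edgeR adjusted p = 0.121 and 0.255). Of the miR-125 and miR-99/100 group, 0 of 5 passed. miR-99a stood at 5699 ± 38.8 and 4653 ± 287 normalized counts, and miR-100 at 7177 ± 198 and 6012 ± 213, without overlap (edgeR adjusted p = 0.137 and 0.166). The miR-29, miR-181 and miR-148 with miR-152 families held no miRNA past the threshold, and their list medians were 0.09, -0.13 and -0.24. With 6.53% called over all 199, an absence of calls in lists this short does not set them apart. In the 12 lists without an edgeR call, unadjusted p was under 0.05 for let-7f, miR-19a, miR-99a, miR-100, miR-106b, miR-144, miR-148b, miR-199a-3p and miR-223. DESeq2 called miR-144 among them and limma-voom called none.

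Of the 48 miRNAs whose groups did not overlap, 21 (10.6% of 199) had every low dose mouse above every control and 27 (13.6%) every low dose mouse below. The 8 and 5 called miRNAs are among them.

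The array also carries 4 mRNA probes, read here over the positive controls. B2m, the light chain of MHC class I and a gene raised by interferons, had 689, 660.1 and 847 scaled counts in controls and 3528, 3036, 1677 and 3209 at the low dose. Every low dose mouse was above the controls, and low dose mouse 3 was the lowest of its group. The mean log2 difference was 1.92 (exact two-sided permutation p = 0.0286, the smallest that 35 arrangements allow). Gapdh stood at 185 ± 24.5 and 151 ± 10.8 scaled counts, without overlap (log2 difference -0.29, exact permutation p = 0.0286). Actb and Rpl19 differed by -0.03 and -0.003 (exact permutation p = 0.8286 and 0.943).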

How the data were processed

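Oviduct RNA of 11 CD1 mice was counted on the nCounter mouse miRNA array (version 1.5, per the labels). The deposited table holds barcode counts per probe and lane, treated as estimated counts because lane quality values with decimals share its columns. Every probe value was whole, so rounding changed nothing. Normalization by the authors, counting software and the use of the probe factors are not given in the sources used here. Groups came from the sample titles, and 0 columns were left unmapped. The labels describe a separate mouse for each sample. Replicate numbers showed no sign of a pairing of mice. This was read from each mouse's departures from the mean of its own group, not from the counts themselves, which run closely together. Over the 199 miRNAs, these departures correlated at -0.26, -0.10 and 0.0007 between same-numbered control and low dose mice. Between mice of different number the values ran from -0.18 to 0.22.

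Tests were edgeR 4.0.16 (R 4.3.3) quasi-likelihood F-tests in a one-way model of 3 control, 4 low dose and 4 high dose mice, with TMM scaling over the 199 miRNAs and Benjamini-Hochberg adjustment over them. Normalized counts are scaled to the average effective library size of all 11 mice. The SE is the log2 change over the square root of F. mRNA probe counts were divided by each lane's geometric mean of positive control probes and compared by exact permutation over 35 arrangements. Pairs of mice within a group differed beyond counting noise (chi-square 17.9 to 71.2 per degree of freedom).

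The comparison and the 22 miRNA lists were chosen with earlier results of these data known. Named miRNAs were those past the threshold, the next 10 by p, the 10 most abundant, detected members of the LPS list and of families holding a called miRNA, and up to 4 of each other list with the smallest p. Probe names were matched by hand to mature names, and 162 of 199 miRNAs were placed by name in RefSeq (GRCm38.p6). Alternatives covered 5 scalings (the mRNA probes without B2m were added after seeing the data), 4 filters, background subtraction, the probe factor, DESeq2 1.42.0, limma-voom (limma 3.58.1), the one-way analysis of variance of the design text, followed by least significant differences, on log2(count + 1), thresholds, a ligation covariate, the 7 mice alone, the replicate block and leaving out each mouse.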

Additional observations from a re-analysis of the deposited data

Results flagged for a closer look

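Of 108 results in the 4 low dose mice (named miRNAs, mRNA probes and ratios), 6 had a mouse whose gap to the next took up more of the group's range than Dixon's 95% critical value for 4 samples allows. Chance alone would flag about 1 in 20. Low dose mouse 1 accounted for 5 of them. It was the highest for miR-200c, with 10759 normalized counts against 8078 to 8346 in the others, for miR-10a, with 2794 against 2413 to 2473, and for miR-130b, with 125 against 100.0 to 102. It was also the highest for the log2 ratio of miR-30c over miR-30b, at 1.03 against 0.61 to 0.66, and of miR-222 over miR-221, at 1.07 against 0.56 to 0.64. Low dose mouse 2 was the lowest for miR-30d, with 2183 normalized counts against 2415 to 2441. Of the 36 viral and spike-in probes, none exceeded the bound in 3 low dose lanes.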

How the results depend on the processing

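Over 20 other settings and 7 fits that left out a mouse, no named miRNA reversed while called, and 45 of the 90 named changed sign in some setting while uncalled. Calls ended in 106 and were gained in 65 of 2426 comparisons of a named miRNA with a setting. The count of 13 (8 higher, 5 lower) became 6 (6 and 0) with the positive controls as reference and 0 (0 and 0) with the 4 mRNA probes, where the SEs were larger. Without B2m, chosen after seeing the data, the mRNA reference gave 9 (9 and 0). It was 8 (4 and 4) without a filter on low counts, with 566 probes tested, and 22 (16 and 6) with DESeq2, which gave no adjusted p for 47 miRNAs. With 100 abundant miRNAs as reference it was 16 (11 and 5), with a miRNA required above the bound in all 7 lanes 17 (12 and 5), and with the bound set without NEG_C 19 (12 and 7). The design text's one-way analysis of variance with unadjusted least significant difference contrasts gave 41 (22 and 19), and 12 (6 and 6) after adjustment. A threshold of 0.1 gave 25 (15 and 10) and of 0.01 gave 2 (2 and 0). Leaving out each mouse gave 2 to 13 calls, 2 to 7 higher and 0 to 6 lower. The replicate number as a block gave 11 (7 and 4), where no sign of a shared source was seen for that number. The log2 difference of miR-222 over miR-221 was 1.61 after background subtraction. On counts as deposited, B2m differed by 1.88 (exact permutation p = 0.0571) and Gapdh by -0.33 (exact permutation p = 0.0857). Leaving out a mouse gave 1.80 to 2.16 for B2m, -0.36 to -0.18 for Gapdh, -0.10 to 0.033 for Actb and -0.049 to 0.040 for Rpl19, in designs whose smallest exact p is above 0.05. Where no construction of a setting shows it, the cause was not tested. Counts near the detection bound, the single lane per mouse and 3 controls limit what could be resolved.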
